A study of Homo sapiens with 4 samples.

Results

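The 8 genes described here encode the enzymes that add a phosphate to cofilin, the LIM kinases LIMK1 and LIMK2 and the testis-specific kinases TESK1 and TESK2, and those that remove it, the slingshot phosphatases SSH1, SSH2 and SSH3 and chronophin, encoded by PDXP. They were taken by gene symbol from a differential expression table of 59885 genes, and all 8 were found, each in 1 row. Total RNA was sequenced from CFL1 knockout cells (2 libraries) and control cells (2 libraries), all under the name PANC-1, a line from a human pancreatic ductal tumour. The title of the series ties CFL1, the cofilin-1 gene, to N6-methyladenosine on super-enhancer RNA and to oncogene transcription. The labels do not give the guide RNA, what the control cells received, or whether each knockout library is a clone or a pool, and they name no separate cultures, so that the spread between libraries may be technical.

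Cofilin binds and severs actin filaments, and phosphorylation of its serine near the amino terminus stops it from binding actin. LIM kinases carry out this phosphorylation downstream of small GTPases through ROCK, PAK and MRCK kinases, and TES kinases do so downstream of integrins. Slingshots and chronophin return cofilin to its active form, so the balance of the kinases and phosphatases sets how much cofilin can turn filaments over. Most of this control is exerted on the enzymes as proteins, which RNA levels do not show.

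The deposited table gives each gene a base mean, its mean over the 4 libraries, and nothing by library. The whole reads behind each base mean were therefore solved for, and the fold change they imply was set against the deposited one. For each of the 8 genes 1 combination of reads near the deposited fold change gave the base mean, and its implied fold change lay within 3.47e-06 of the deposited one on the log2 scale. The reads are those that the authors' software estimated, rounded, and values below are normalized counts, which are reads divided by the authors' size factor of the library. The 8 genes had between 63 and 3450 reads in a library. Libraries are called A and B within each group, and these letters are names only, which could not be tied to the numbers in the labels.

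CFL1 itself had 2285 and 2487 normalized counts in the knockouts, against 6276 and 13761 in the controls. CFL1 was lower in both knockouts, and the authors' deposited table gives it a log2 fold change of -2.07 at a DESeq2 adjusted p of 0.00168. One library, control B, was unlike the rest. Across the 11418 expressed genes, here those with recovered reads and a base mean of 100 or more, Pearson's r of log2 values was 0.99 between the knockouts, 0.97 between knockout A and control A, and 0.53 between the controls. Markers of the labelled cell type were part of this: KRT7 had 4000.4 and 3683 normalized counts in the knockouts and 3551 in control A, but 108 in control B. Of the 6 ductal and epithelial markers listed, KRT7 was the only 1 with a positive log2 fold change. KRT8 and KRT18, whose reads were not recovered, had log2 fold changes of -1.41 and -0.98 (DESeq2 adjusted p 0.117 and 0.296). KRT19, CDH1 and EPCAM also went the other way from KRT7. KRT19 had 0 in both knockouts and 1.82 in control A, but 2481 in control B. CDH1 had 3.54 and 2.16 in the knockouts and 12.7 in control A, but 164 in control B, and EPCAM had 7.08 and 16.2 in the knockouts, against 6.36 in control A and 42.5 in control B. Genes outside the marker lists also set control B apart, in both directions. On the log2 scale the knockouts differed from control B by 11.6 for ALPL and by 8.35 for CDKN2B. From control A they differed by 0.29 and -0.42. CLDN1 went the other way, at -6.87 from control B and -0.37 from control A. Whether control B, or the knockouts and control A, are the labelled line was not tested. Of 4 leukocyte markers the summed level was 19.5 and 20.5 in the knockouts and 19.1 in control A, against 1255 in control B, nearly all of it CD68, while PTPRC and CD3E had at most 1.12 in any library. Stromal fibroblast markers were split: COL1A1 had 687 and 556 in the knockouts, against 354 in control A and 1574 in control B, while PDGFRB had 439 and 451, against 513 and 6.71. Of the 4 acinar markers PRSS3 had 0 in both knockouts, against 0 in control A and 346 in control B, and was called as lower in the authors' deposited table at a DESeq2 adjusted p of 0.000459, while PRSS1, CPA1 and CELA3A were at 0 in every library. Endothelial markers were split: KDR had 0 in both knockouts and in control A, and 156 in control B. VWF had 11.5 and 11.9 in the knockouts, against 21.8 in control A and 8.94 in control B, and CDH5 had 4.43 and 7.55, against 16.4 and 0. Of the mesenchymal markers CDH2 had 483 and 505 in the knockouts and 586 in control A, but 155 in control B. ZEB1 had 839 and 979, against 1032 and 819. VIM, whose reads were not recovered, had a log2 fold change of -1.81 (DESeq2 adjusted p 0.351). Of the neuroendocrine markers SYP had 24.8 and 15.1 in the knockouts, against 18.2 in control A and 106 in control B. CHGA had at most 2.16 in any library, and INS and GCG had a base mean of 0. The part of this difference between the controls in the results below was not tested. Each of the 8 genes is therefore given against both controls and against each of them. In bulk RNA fewer cells of a type and less RNA per cell cannot be told apart.

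None of the 8 genes had a DESeq2 adjusted p under 0.05 in the authors' deposited table. Their DESeq2 adjusted p ran from 0.205 for PDXP to 0.820 for SSH3, so that 0 of 8 were called at this threshold. Of 16629 tested genes 0.559% were, 0.138% as higher and 0.421% as lower. The authors' table also holds a column of marks that does not follow this threshold. It marks LIMK1 and PDXP as upregulated, SSH1 as downregulated and the other members as not significant. PDXP and LIMK1 were the members with the lowest p among those higher in the knockouts, and SSH1 among those lower. So 2 members were higher and 1 lower at an unadjusted p under 0.05, as 3.7% and 10.4% of tested genes with a base mean of 100 or more were, 14.1% in all. Both knockouts lay above both controls for 4 genes (LIMK1, TESK2, SSH2 and PDXP) and below both for LIMK2 and SSH1. Over the expressed genes the groups did not overlap in 47.2%, with the knockouts higher in 24.6% and lower in 22.6%. With 2 libraries against 2, an exact two-sided permutation test on a single gene cannot give a p below 0.333.

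**Figure D1:**
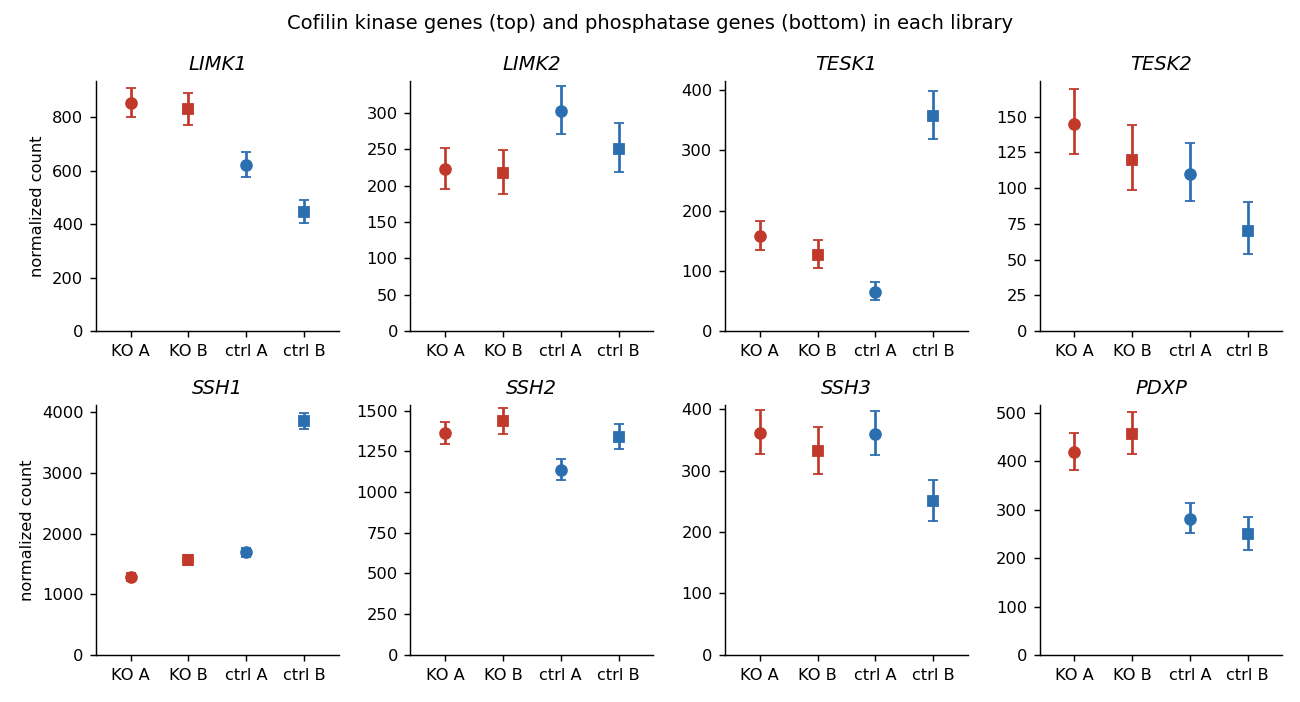
Normalized counts (vertical axes, from 0) of the 4 kinase genes (top row) and the 4 phosphatase genes (bottom row) in the 2 CFL1 knockout libraries (red) and the 2 control libraries (blue). Bars are exact 95% Poisson intervals of the reads and cover counting error only; LIMK1 and PDXP lie above both controls by more than these bars, and TESK1 and SSH1 are highest in control B.

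Of the kinases, LIMK1, the LIM kinase gene with most reads here, had 854 and 829 normalized counts in the knockouts, against 621 and 446 in the controls. Both knockouts lay above both controls, and the lower knockout was 1.34 times the higher control. On the log2 scale the gap between the knockouts was 0.04, and that between the controls 0.48. The mean of the knockouts was 1.36 times control A and 1.89 times control B. The authors' deposited table gives LIMK1 0.66 ± 0.29 (log2 fold change ± standard error) at a DESeq2 adjusted p of 0.326. On the recovered reads without control A, limma gave LIMK1 an adjusted p of 0.0277, in a fit that called 33.3% of all genes, and without control B one of 0.347.

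LIMK2, the second LIM kinase, had 222 and 217 normalized counts in the knockouts, against 302 and 250.4 in the controls. Here the order was the other way, with both knockouts below both controls, but the higher knockout and control B overlapped in their counting error, at 196 to 252 and 219 to 285. The mean of the knockouts was 0.73 times control A and 0.88 times control B. LIMK2 stands at -0.33 ± 0.30 (log2 fold change ± standard error) in the authors' deposited table, at a DESeq2 adjusted p of 0.637.

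TESK1, which phosphorylates cofilin when cells attach to matrix, had 158 and 126 normalized counts in the knockouts, against 65.4 and 357 in the controls. The knockouts lay between the controls, which differed 5.45-fold from each other. On the log2 scale the knockouts differed by 1.10 from control A and by -1.33 from control B. Of the 8 genes TESK1 has the widest error in the authors' deposited table, at -0.57 ± 0.89 (log2 fold change ± standard error) and a DESeq2 adjusted p of 0.780. Against control A alone the TESK1 difference was far out among genes: 73 of the 11418 expressed genes were as much higher (0.639%). Against control B, where TESK1 was lower, 12.6% were as far that way. These places were looked up after the values were seen, and control A is a single library with 72 TESK1 reads, for which the exact 95% Poisson interval is 51.2 to 82.4 normalized counts.

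TESK2, the related kinase with the fewest reads of the 8 genes, had 145 and 119.7 normalized counts in the knockouts, against 110.0 and 70.4 in the controls. Both knockouts were above both controls, but only by 1.09 times between the nearest of them, and the intervals of knockout B (98.5 to 144) and control A (91.2 to 131) overlapped. TESK2 has 0.55 ± 0.48 (log2 fold change ± standard error) in the authors' deposited table, at a DESeq2 adjusted p of 0.621.

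Of the phosphatases, PDXP differed most between the groups in relation to its spread. Chronophin, its product, dephosphorylates cofilin and also pyridoxal phosphate, the active form of vitamin B6. PDXP had 419 and 457 normalized counts in the knockouts, against 282 and 249 in the controls. All 4 libraries held to their group: the lower knockout was 1.49 times the higher control, and the gaps within the groups were 0.13 for the knockouts and 0.18 for the controls on the log2 scale. The mean of the knockouts was 1.55 times control A and 1.76 times control B. PDXP stands at 0.72 ± 0.26 (log2 fold change ± standard error, 95% interval 0.21 to 1.23) in the authors' deposited table, at a DESeq2 adjusted p of 0.205. Without control A, in the fit with 33.3% of genes called, its limma adjusted p was 0.0490, and without control B it was 0.364. Among the tested genes 2.85% had an unadjusted p as low. Of the 11418 expressed genes, 4.43% were as much higher against control A and 24.7% against control B.

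SSH1, with the highest base mean of the slingshot genes, had 1286 and 1558 normalized counts in the knockouts, against 1691 and 3856 in the controls. Both knockouts were below both controls, and control B was 2.28 times control A. The mean of the knockouts was 0.84 times control A, and control A was 1.09 times the higher knockout, with overlapping intervals of 1479 to 1641 for knockout B and 1615 to 1770.0 for control A. Against control B the mean was 0.37 times as high. On the log2 scale the knockouts differed by -0.26 from control A and by -1.45 from control B. For SSH1 the authors' deposited table gives -0.96 ± 0.48 (log2 fold change ± standard error) at a DESeq2 adjusted p of 0.386.

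SSH2, another slingshot phosphatase, had 1361 and 1434 normalized counts in the knockouts, against 1137 and 1337 in the controls. The knockouts were higher, by 1.02 times between the nearest libraries. SSH2 has the narrowest error of the 8 in the authors' deposited table, at 0.18 ± 0.21 (log2 fold change ± standard error, 95% interval -0.24 to 0.59) and a DESeq2 adjusted p of 0.716. SSH3, the third slingshot, had 361 and 331 normalized counts in the knockouts, against 359.9 and 250.4 in the controls. Its groups overlapped, and it differed by -0.057 from control A and by 0.46 from control B on the log2 scale, with a DESeq2 adjusted p of 0.820 in the authors' deposited table.

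**Figure D2:**
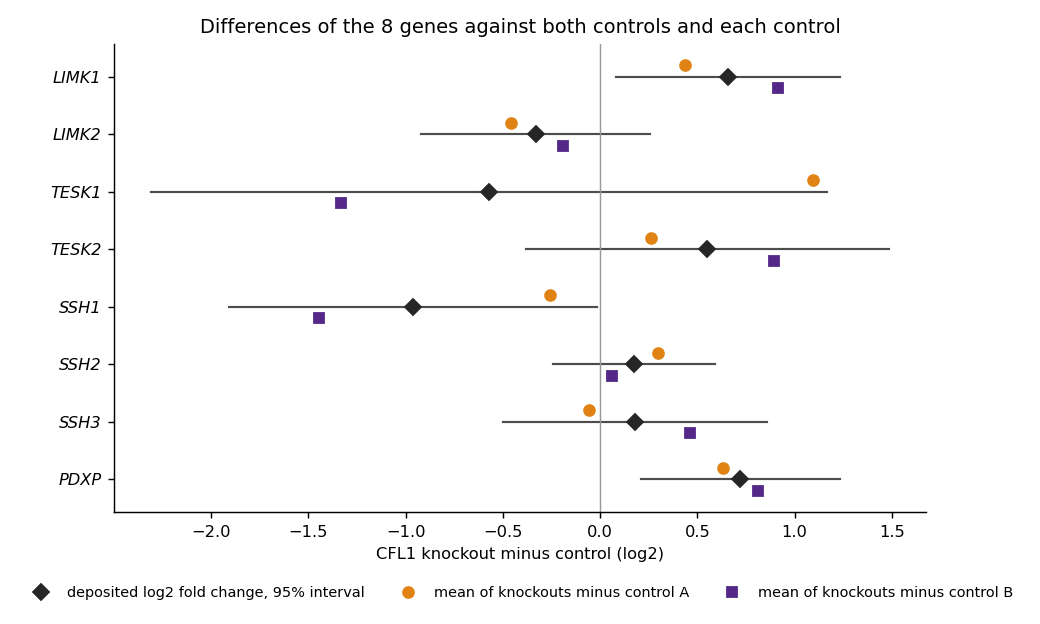
CFL1 knockout minus control on the log2 scale (horizontal axis) for the 8 genes (rows). Diamonds are the authors' deposited log2 fold changes with bars of the 95% interval, orange circles the mean of the knockouts minus control A and purple squares the same minus control B; for TESK1 and SSH3 the circle and the square lie on opposite sides of 0.

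For 6 of the 8 genes the knockouts lay on the same side of control A as of control B, and for TESK1 and SSH3 they did not. The sign differed in 41.8% of the 11418 expressed genes. The controls were further apart than the knockouts for all 8 genes. The median gap between the controls was 0.50 on the log2 scale for the 8 genes and 0.75 for the expressed genes, and between the knockouts 0.13 and 0.12. Against control A, both knockouts were above for 5 members and below for 2, where over the expressed genes 43.4% were above and 38.4% below. Against control B they were above for 5 and below for 3, where 45.9% and 48.8% were. The median log2 fold change of the 8 genes in the authors' deposited table was 0.18, and that of all tested genes -0.03.

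**Figure D3:**
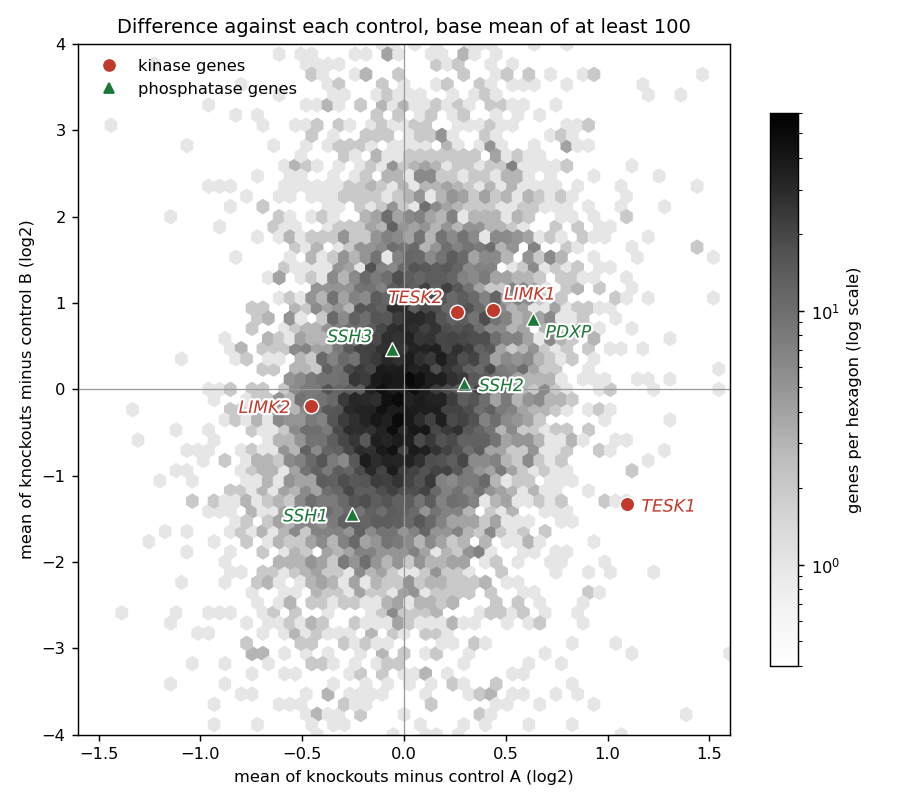
Mean of the knockouts minus control A (horizontal axis, log2) and minus control B (vertical axis, log2) for the 11418 expressed genes, shaded by the number of genes per hexagon on a log scale, with the kinase genes as red circles and the phosphatase genes as green triangles; 698 genes lie outside the plotted range. Both axes share the knockout libraries; LIMK1, TESK2, SSH2 and PDXP are above 0 on both, LIMK2 and SSH1 below 0 on both, and TESK1 is at 1.10 and -1.33.

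Ratios between 2 genes of a library do not depend on its size factor. In the knockouts LIMK1 made up 79.3% of the LIMK1 and LIMK2 reads in both libraries (exact 95% binomial intervals 77.0% to 81.6% and 76.6% to 81.8%), against 67.3% in control A (64.3% to 70.2%) and 64.0% in control B (60.1% to 67.8%). The knockout intervals did not overlap those of either control. These intervals cover counting error only, and how many other pairs of genes separate in this way was not counted. The ratio of LIMK1 to LIMK2 reads was 3.84 and 3.83 in the knockouts, against 2.06 and 1.78 in the controls. In the mean of the knockouts it was 1.86 times control A and 2.15 times control B, and on the log2 scale the gap between the controls, 0.21, was smaller than the difference from either control, 0.90 and 1.11. SSH1 made up 48.6% and 52.1% of the SSH1 and SSH2 reads in the knockouts, against 59.8% in control A and 74.3% in control B. SSH1 thus had a lower share in both knockouts, with a gap of 0.96 between the controls against a group difference of -1.03 on the log2 scale. TESK1 made up 52.0% and 51.3% of the TESK1 and TESK2 reads in the knockouts, between 37.3% in control A and 83.5% in control B. These 3 pairs were the ones compared, and with 2 libraries a group no test of a ratio can give a p below 0.333 by exact permutation.

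**Figure D4:**
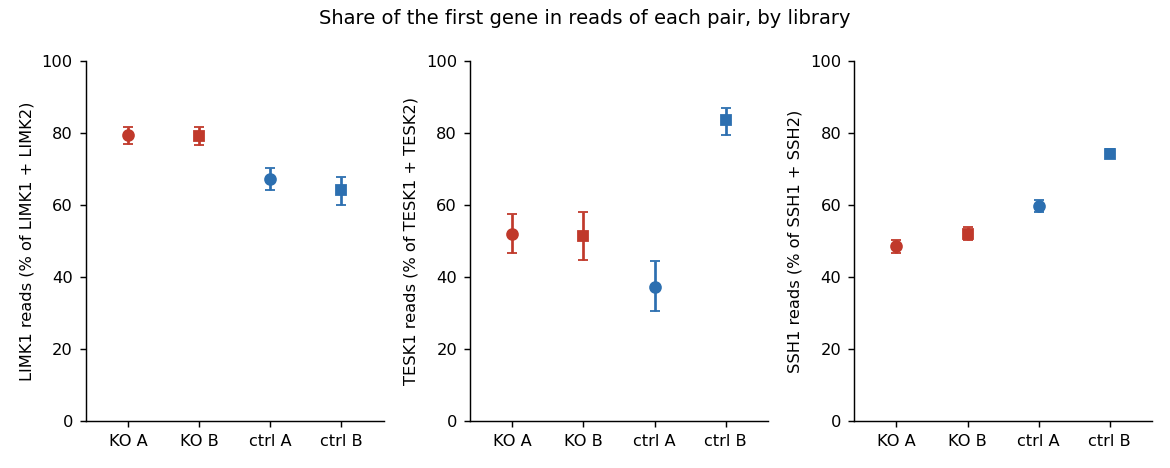
Reads of the first gene as a percentage of both genes of a pair (vertical axes, 0 to 100%) in the CFL1 knockout libraries (red) and the control libraries (blue), for LIMK1 with LIMK2, TESK1 with TESK2 and SSH1 with SSH2. Bars are exact 95% binomial intervals of the reads; for LIMK1 both knockouts are at 79.3%, above both controls.

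Divided by the longest transcript of each gene, the base mean was 204 per kilobase for LIMK1, 175 for PDXP, 161 for SSH1, 141 for SSH2, 109 for SSH3, 72.4 for TESK1, 67.5 for LIMK2 and 36.2 for TESK2, against 3303 for CFL1. LIMK1 stood above 54.0% of the expressed genes and TESK2 above 5.30%. Over the 4 libraries neighbours in this order overlapped, with 132 to 253 per kilobase for LIMK1 and 124 to 227 for PDXP, except SSH2 with SSH3 and LIMK2 with TESK2. This order depends on the length used, since SSH1 has transcripts of very different length, with 13040 nucleotides the longest and 625 the median. By median transcript length SSH3 at 484 per kilobase also stood above LIMK1 at 339, and LIMK2 at 238 stood above PDXP at 196. Summed per kilobase, the phosphatases were 1.35 and 1.55 times the kinases in the knockouts, against 1.56 and 1.75 in the controls, and with median transcript lengths 5.35 and 6.34 times, against 6.74 and 11.1. Both knockouts were below both controls under either length. With the longest transcripts the nearest libraries stood at 1.55 and 1.56, closer than the knockouts were to each other. Counting error of these sums was not worked out, and how many other sums of genes separate in this way was not counted. With median lengths SSH1 weighed most in the phosphatase sum, and both lengths use the same reads.

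The promoters of PDXP and LIMK1 are shown because these are the members in which each knockout was at least 1.3 times each control. They are the 250 bases before the start in RefSeq on GRCh38.p14, the upstream of 2 starts for LIMK1, on the plus strand at chr22:37658473-37658722 and chr7:74083554-74083803. Capitals mark GGGCGG, the GC box, and CCAAT, on either strand.
PDXP: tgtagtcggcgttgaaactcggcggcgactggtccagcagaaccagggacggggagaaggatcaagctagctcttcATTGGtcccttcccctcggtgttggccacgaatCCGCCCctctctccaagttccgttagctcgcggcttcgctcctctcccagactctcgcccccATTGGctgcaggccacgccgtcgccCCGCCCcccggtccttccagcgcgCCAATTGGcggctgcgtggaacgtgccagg
LIMK1: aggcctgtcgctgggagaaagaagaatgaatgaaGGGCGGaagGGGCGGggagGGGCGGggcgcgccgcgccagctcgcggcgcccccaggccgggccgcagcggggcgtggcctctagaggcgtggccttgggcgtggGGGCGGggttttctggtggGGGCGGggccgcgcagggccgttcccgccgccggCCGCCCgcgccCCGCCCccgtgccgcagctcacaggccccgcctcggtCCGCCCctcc
The CCAAT motif had 4 matches for PDXP, of which the last 2 overlap on opposite strands, and 0 for LIMK1. The GC box had 2 matches for PDXP and 8 for LIMK1. Of 35116 promoters of this length 32.0% hold the first motif and 42.6% the second. Of the other members TESK2 had 3 matches to the first and the rest 0, while all 8 had at least 1 GC box. The E box, CACGTG, was also searched and had 1 match, in TESK2, where 6.34% of promoters hold it. GC content was 65.6% for PDXP and 79.6% for LIMK1, with a median of 58.0% over all these promoters. A match is a description of the letters only.

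Some of the members share sequence with other genes of GENCODE 29, an annotation of another build than the authors'. A protein-coding gene on the same strand covers 62.6% of the exon bases of PDXP, and no row of that name was found in the authors' deposited table. On the opposite strand CD72 covers 15.4% of the exon bases of TESK1, at a base mean of 1.28, and TOE1 covers 2.80% of those of TESK2, at a base mean of 302. Whether counting used strand is not given in the sources used here, and the part of these genes in the values above was not tested.

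In the pathway lists around the 8 genes, the calls at a DESeq2 adjusted p under 0.05 were CFL1 and YWHAZ, both lower in the knockouts. Of the 3 genes of the cofilin family only CFL1 was called, but all 3 were marked as downregulated by the authors. Both knockouts lay below both controls for all 3, as for 22.6% of the expressed genes. CFL2 had 702 and 824 normalized counts in the knockouts, against 978 and 2815 in the controls (log2 fold change -1.31, DESeq2 adjusted p 0.313). DSTN, which encodes destrin and has the highest base mean, had 5079 and 5416 in the knockouts, against 6621 and 13425 in the controls (log2 fold change -0.93, DESeq2 adjusted p 0.335). Of 7 kinases that activate LIM kinases 0 were called. ROCK2, with the highest base mean, had 4574 and 4948 in the knockouts, against 5564 and 1965 in the controls. PAK1, with the lowest p of this list, had 149.6 and 143, against 184 and 1338, at a DESeq2 adjusted p of 0.232. Of 5 small GTPase genes above those kinases 0 were called. CDC42 had 2058 and 2245 normalized counts in the knockouts, against 2819 and 7791 in the controls. The median log2 fold change of the kinase list was -0.12, with 0.02 against control A and -0.24 against control B. That of the GTPase list was -0.28, and the 4 genes whose reads were recovered had medians of 0.24 and -0.85 against control A and control B.

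Of 21 partners and regulators of these enzymes 1 was called, as lower, and 20 were not, where 0.421% of all tested genes were called as lower. Of the 21, 20 had a negative log2 fold change. The share of all tested genes with a negative one was not counted, and their median was -0.03. The one called was YWHAZ, a 14-3-3 gene whose protein binds phosphorylated cofilin, LIMK1 and slingshots, at -0.98 ± 0.23 (log2 fold change ± standard error) and a DESeq2 adjusted p of 0.00769 in the authors' deposited table. HSP90AB1, a chaperone gene with the highest base mean of the list, has a log2 fold change of -0.66 at a DESeq2 adjusted p of 0.446 in the authors' deposited table. YWHAZ and HSP90AB1 have base means above the limit for recovering reads, so they could not be set against each control. The list median was -0.42, and the 18 expressed genes of the list had medians of 0.02 and -0.82 against control A and control B. Of 8 cofilin cofactor genes 0 were called, and all 8 had a negative log2 fold change, with a list median of -0.83. CAP2, which helps to recycle actin monomers, had 253 and 264 normalized counts in the knockouts, against 443 and 646 in the controls, at a DESeq2 adjusted p of 0.129. CAP1, with the highest base mean of them, had 2363 and 2544, against 3016 and 12686. Against control A the median of the expressed cofactor genes was -0.07 and against control B -1.13. For the 8 kinase and phosphatase genes these medians were 0.28 and 0.26, with TESK1 and SSH3 changing sign between the controls, and for all expressed genes 0.02 and -0.05.

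The genes whose values over the 4 libraries were most like those of LIMK1, by the root mean square difference of log2 values centred on each gene's mean, were MVD, HIST1H2BO and TGFB1, at 0.013, 0.020 and 0.021. MVD, an enzyme gene of cholesterol synthesis, had 468 and 455 normalized counts in the knockouts, against 346 and 243 in the controls. TGFB1 encodes transforming growth factor beta 1. For SSH1 the most like were KIF3B, FAM95C and SFT2D1, at 0.0065, 0.019 and 0.019. KIF3B, a kinesin motor gene, had 1820.5 and 2187 in the knockouts, against 2378 and 5470.0 in the controls. With 4 libraries and 11417 genes to choose from, close matches are a description of these libraries only.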

How the data were processed

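RNA from knockouts and controls was sequenced, and the authors deposited 1 DESeq2 result table of this contrast. For the steps before it, the submitters' processing notes list RSEM, STAR, cutadapt and FastQC with build hg19 and no versions. The authors deposited the base mean, a signal averaged over the libraries after division by size factors. They also deposited a log2 fold change with standard error (log2 units), the Wald score, and p-value columns before and after Benjamini-Hochberg adjustment. A further column marks genes as upregulated, downregulated or not significant.

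Reads were recovered as whole numbers whose weighted sum gives the base mean to its printed digits. The weights are the base means of genes with a single read in the whole table. The dispersion that yields the deposited standard error was solved for each combination, and the fold change it implies had to lie within 0.0001 of the deposited one on the log2 scale. Genes with a single combination were kept without this condition where a group had no read or the base mean was low. Reads came out for 30568 of 30831 genes (99.1%). The 169 genes with a base mean of 10000 or more were left out. Reads summed to 14623528 and 12337323 in the knockouts and to 14295660 and 14224318 in the controls. Base means shifted on purpose gave a solution in 0 of 100 trials in each of 4 ranges.

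Calls are genes whose adjusted p, as deposited, is under 0.05. As a check on the recovered reads, limma 3.58.1 (R 4.3.3, trended prior) was fitted to log2(normalized count + 1), a scale that understates changes of low genes. The fit was also run on simulated data of lower dispersion than the median of the expressed genes, with no library unlike the rest. That run therefore does not show how the fit performs on these data. Intervals cover counting error only. Transcript lengths are from GENCODE 29. Python 3.11.15, numpy 2.4.6, pandas 2.3.3, scipy 1.17.1, numba 0.67.0 and matplotlib 3.10.9 were used. Named genes are the 8 members, CFL1, CFL2 and the 3 genes most like LIMK1 and SSH1. Of each pathway list they are also the called genes, the one with the highest base mean and the one with the lowest p. The cell type markers named were picked from their lists after their values were seen. ALPL, CDKN2B and CLDN1 belong to no list and were also picked after their values were seen. The gene with the highest base mean of the GTPase list is not reported here. The members and lists were chosen with earlier results of these data known, and the read recovery, ratios and promoters after the values were seen.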

Additional observations from a re-analysis of the deposited data

How the results depend on the processing

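As deposited, 0 of the 8 genes were called and 93 genes in all. The total was 78 without independent filtering, 91 and 77 with minimum base means of 10 and 100, and 62 at an adjusted p under 0.01, with 0 members each time. On the reads, which were recovered after the data were seen, limma called 0 of 24730 genes with a pseudocount of 1 (501 at an unadjusted p under 0.05) and 0 with 0.1 (474). When single libraries were left out, between 0 and 8227 genes and between 0 and 2 members were called, the lone library of a group being assumed to vary like the other group. The 8227 genes, 33.3%, and the members LIMK1 and PDXP, at limma adjusted p of 0.0277 and 0.0490, belong to the fit lacking control A. The fits lacking control B, knockout A and knockout B called 0, with 3197, 83 and 78 genes at an unadjusted p under 0.05. Over all limma settings the adjusted p of LIMK1 ran from 0.0277 to 1.0 and that of PDXP from 0.0490 to 1.0. Of 48 limma fold changes 45 kept the sign of the deposited one. For the 6 genes whose groups did not overlap, the sign could not change under any of these settings. TESK1 ran from -1.33 without control A to 1.10 without control B, and was 0.04 without knockout B. SSH3 ran from -0.057 without control B to 0.46 without control A. The other 6 genes kept their sign, with 0.44 to 0.91 for LIMK1, 0.63 to 0.81 for PDXP and -1.45 to -0.26 for SSH1. The cause was not tested. The 6 genes with both knockouts on 1 side of the controls became 7 without control B and 8 without control A, a comparison added after the data were seen. Over the expressed genes both knockouts lay on 1 side of control A in 81.7% and of control B in 94.7%. Leaving out a control can only keep or raise such a number. By median transcript length SSH1, SSH2 and SSH3 stood at 3357, 1365 and 484 per kilobase, above LIMK1 at 339, and LIMK2 at 238 stood above PDXP at 196. No paired analysis was possible because the recovered libraries carry no replicate number from the labels. The thinnest value rests on 63 reads, of TESK2 in control B.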
